A study of Mus musculus with 6 samples.

Results

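Glycolysis splits glucose into pyruvate in the cytosol and yields ATP, and the pentose phosphate pathway branches from its first intermediate, glucose 6-phosphate. The oxidative branch of that pathway makes NADPH, which feeds glutathione recycling and the NADPH oxidase of phagocytes, and the non-oxidative branch returns sugar phosphates to glycolysis. Microglia, the resident macrophages of the brain, take up glucose and are known to shift towards glycolysis when activated. The genes described here are 34 named enzymes, transporters and regulators of both routes. They were taken by symbol from a deposited table of read counts, in which they occupied 35 of 55487 Ensembl gene rows, because Aldoa had 2 rows. All 35 rows passed the filter on low counts, among 15787 genes tested.

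The libraries came from cortical microglia of 6 female mice aged 20 months, gated in a cell sorter as live, CD45-intermediate and CD11b-positive. RNA from each mouse was turned into amplified cDNA with a low-input SMARTer kit. The controls were 3 Atg7-fl/fl mice, which carry loxP-flanked alleles of the autophagy gene Atg7 and no Cre. The knockouts were 3 Atg7-fl/fl;Cx3cr1-CreERT2 mice, littermates in which a ligand-dependent Cre is expressed from the Cx3cr1 locus. The ATG7 protein is the E1-like enzyme of both conjugation systems that build autophagosomes. Both groups carry the floxed alleles, so effects of the Cre allele and of Atg7 loss cannot be told apart. Cx3cr1 is also active in border macrophages and in monocytes. The sources used here do not say how or when the Cre was activated.

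Library totals ran from 21282335 to 39389527 reads in 4 libraries, against 1254380 in control 3 and 3789208 in knockout 2, which are called the shallow libraries. The members held between 0.573% and 0.780% of the reads of a library. Levels are read counts scaled to a common library size by TMM, a factor that evens out library composition, and are given as CPM (counts per 1e+06 reads). Values of single libraries are listed in the order of replicates 1 to 3. The limit that a count of 0 allows, 3 reads, was 0.0789 CPM in control 1 and 2.36 CPM in control 3. The log2FC is the log2 fold change of knockout over control from edgeR, positive where the knockout is higher, and a gene was called at a Benjamini-Hochberg adjusted p under 0.05 over all genes tested. Atg7 had 65.7, 66.4 and 56.6 CPM (controls) and 25.0, 26.5 and 23.7 CPM (knockouts), a log2FC of -1.33 ± 0.19 (SE), with an edgeR adjusted p of 0.0147, and remained detected in each knockout library. In bulk libraries such as these, fewer cells that express a gene and less RNA per cell cannot be told apart.

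The labelled cell type was checked with its markers. 8 microglia markers, P2ry12 and Tmem119 among them, summed to 52186 to 56368 CPM in the controls and 39342 to 44348 CPM in the knockouts, with 8 of 8 lower on average. Without Cx3cr1, whose locus carries the Cre, the other 7 summed to 40926 to 45350.2 CPM in the controls and 35217 to 39954 CPM in the knockouts. Markers of other myeloid cells were far lower and had higher means in the knockouts. The 10 markers of border-associated macrophages summed to 15.3 to 90.4 CPM in the controls and 65.0 to 262 CPM in the knockouts, with 10 of 10 higher on average. The 8 monocyte markers summed to 10.0 to 47.1 CPM in the controls and 21.6 to 144 CPM in the knockouts, with 7 of 8 higher, and the 8 neutrophil markers to 42.7 to 377 CPM in the controls and 129.6 to 1736 CPM in the knockouts, with 8 of 8 higher. Lymphocyte markers stayed under 2 CPM, with 6 of 8 higher and Ms4a1 at 0 throughout. The part of these shifts in the values below was not tested.

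Promoter sequences are shown first, because transcription factors of hypoxia and of oxidative stress are known to act on genes of both routes. RefSeq windows of 250 bases before an annotated start were found for all 34 symbols, 48 windows in all, on build GRCm38.p6. These were searched on both strands for ACGTG, the core of the hypoxia response element, and TGACNNNGC, the core of the antioxidant response element bound by NRF2. At least 1 ACGTG stood in 16 of the 48 windows (33.3%, 13 symbols), against 16.6% of 32851 windows of all genes. TGACNNNGC stood in 4 (8.33%; Aldoa, G6pdx, Hk1 and Slc16a1), against 10.2%. Windows of 1 gene can overlap each other, and a palindrome CACGTG counts as 2 matches. Such a match is a description of letters, not of a bound site.

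The windows printed here are those of Taldo1, which had the smallest p, and of Aldoa, Pgk1 and Hk3, picked from rows without overlap. That of Ldha, which had the most ACGTG matches, 5, is added. Of the rows without overlap that are not printed, Pgd and Slc2a6 held 0 matches to either motif, and Pkm and Slc16a3 held ACGTG. The other Aldoa windows held 0 matches to TGACNNNGC, and the other Ldha window 0 to either motif. Windows are written 5′ to 3′ on the gene's strand and end at the base before the start; capitals mark matches to either motif.
Taldo1 (chr7:141391910-141392159, plus strand): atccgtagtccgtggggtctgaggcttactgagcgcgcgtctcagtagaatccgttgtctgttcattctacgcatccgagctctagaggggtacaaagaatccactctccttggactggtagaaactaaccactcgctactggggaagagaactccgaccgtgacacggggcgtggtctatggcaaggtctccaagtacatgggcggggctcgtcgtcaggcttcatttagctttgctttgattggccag
Aldoa (chr7:126799255-126799504, minus strand): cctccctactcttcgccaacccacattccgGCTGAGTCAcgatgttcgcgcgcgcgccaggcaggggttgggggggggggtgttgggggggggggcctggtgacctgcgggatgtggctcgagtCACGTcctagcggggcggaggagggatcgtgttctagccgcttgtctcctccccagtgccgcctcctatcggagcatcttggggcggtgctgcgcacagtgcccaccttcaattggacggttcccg
Pgk1 (chrX:106186850-106187099, plus strand): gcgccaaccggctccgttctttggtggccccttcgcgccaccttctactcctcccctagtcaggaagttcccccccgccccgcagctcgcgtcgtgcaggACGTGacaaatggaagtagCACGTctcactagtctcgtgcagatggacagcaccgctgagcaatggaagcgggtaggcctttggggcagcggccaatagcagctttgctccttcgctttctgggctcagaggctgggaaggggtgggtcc
Hk3 (chr13:55021386-55021635, minus strand): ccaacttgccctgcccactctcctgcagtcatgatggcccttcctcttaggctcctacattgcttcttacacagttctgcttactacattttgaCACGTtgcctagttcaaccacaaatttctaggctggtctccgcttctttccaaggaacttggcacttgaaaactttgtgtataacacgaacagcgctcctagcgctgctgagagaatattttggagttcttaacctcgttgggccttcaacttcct
Ldha (chr7:46845554-46845803, plus strand): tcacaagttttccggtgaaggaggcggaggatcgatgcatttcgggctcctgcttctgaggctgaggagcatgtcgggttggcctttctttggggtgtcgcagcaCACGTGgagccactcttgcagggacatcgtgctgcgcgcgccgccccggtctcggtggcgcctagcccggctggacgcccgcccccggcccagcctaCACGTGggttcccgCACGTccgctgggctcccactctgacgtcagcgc
For G6pdx, whose window crosses an annotated exon, only the bases around the antioxidant element core are given.
G6pdx (chrX:74428920-74428946, minus strand): ggcgggtcaGCTCAGTCAaagcacacg
The window of Taldo1 held 0 matches to either motif, and that of Ldha held 5 to ACGTG. Whether such matches bear on the level of any member was not tested.

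Levels per length differed widely among the members. Exon lengths came from GENCODE M21, and levels per length are in TMM-scaled reads per kilobase of exon and 1e+06 reads (RPKM), averaged over the 6 libraries. Each length merges the exons of all annotated transcripts, used or not, and the order of genes depends on it. The highest was Ldhb, which encodes the heart-type subunit of lactate dehydrogenase, at 532 RPKM. Aldolase A (Aldoa) followed at 321 RPKM, then the transaldolase gene Taldo1 at 165, enolase 1 (Eno1) at 158, Gapdh at 132 and the pyruvate kinase gene Pkm at 115 RPKM. The ranges over libraries of Taldo1, Eno1, Gapdh and Pkm overlapped each other, so their order is not separated by the spread. In CPM, without division by length, Ldhb had means of 823 (controls) and 847 (knockouts), and Aldoa of 811 and 1058. The lowest were the platelet-type phosphofructokinase gene Pfkp at 0.309 RPKM, the second Aldoa row (ENSMUSG00000114515) at 0.636 RPKM, and Rpia, which encodes ribose 5-phosphate isomerase, at 1.16 RPKM. That second row held 48 reads over all libraries, against 126633 for the first (ENSMUSG00000030695), and Aldoa below means the first.

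**Figure D1:**
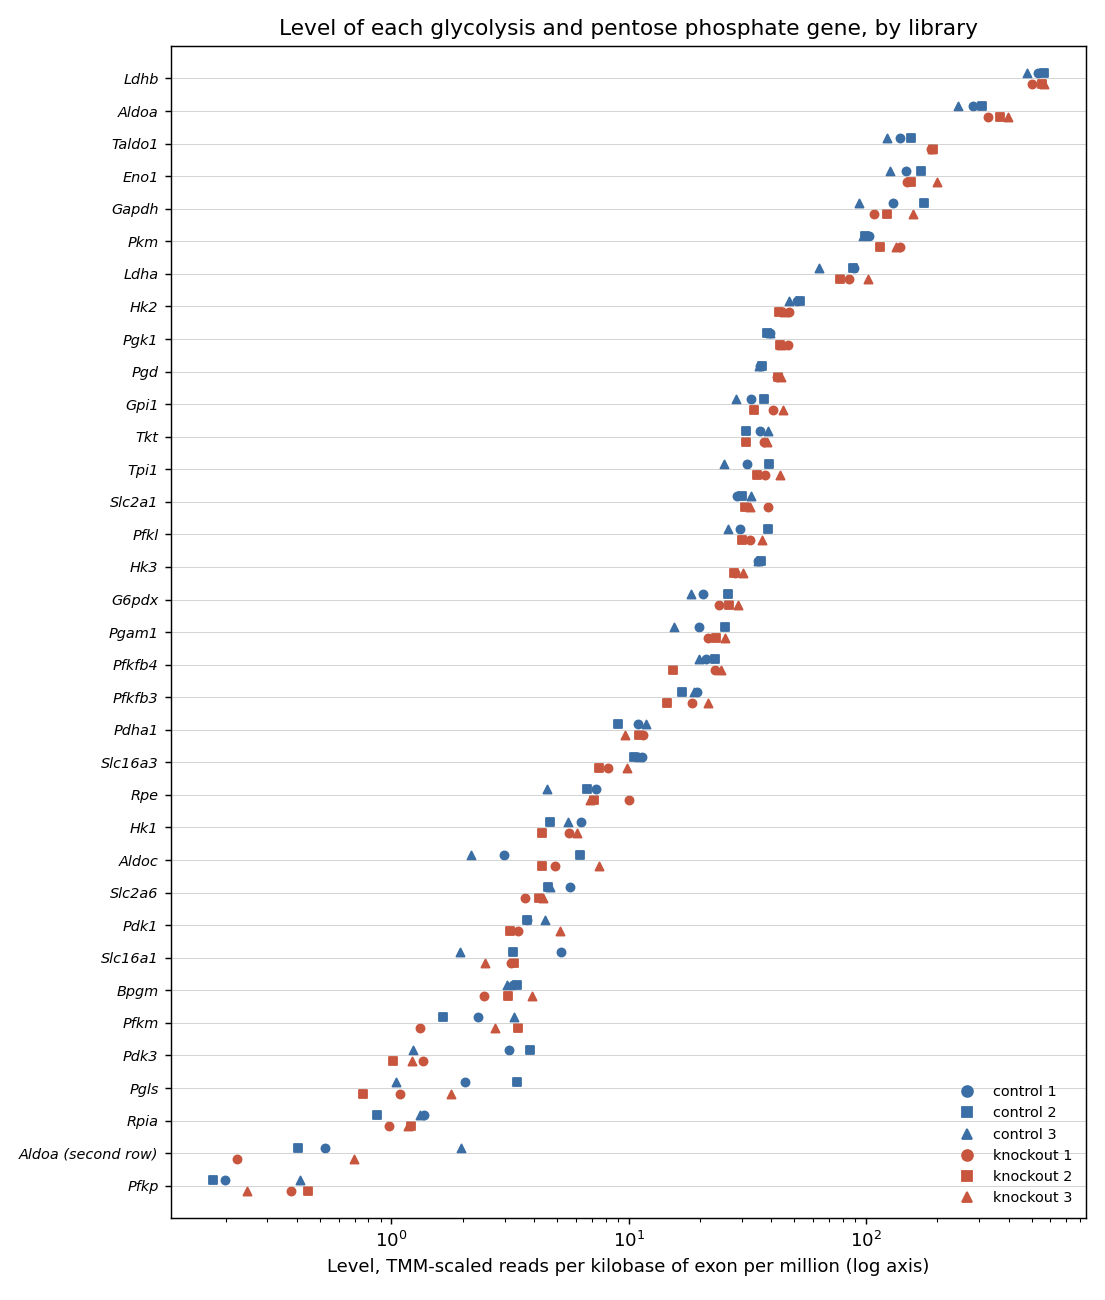
Each member's level in TMM-scaled RPKM (log axis), 1 point per library, controls in blue and knockouts in red. Ldhb and Aldoa are at the top, and Pfkp and the second Aldoa row at the bottom; the 0 of knockout 2 in that row cannot be drawn on a log axis.

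In 7 of 8 enzyme or transporter families the same gene led in all 6 libraries by RPKM, which depends on the merged exon lengths. Of the hexokinases, which trap glucose by phosphorylation, Hk2 made up 55.2% ± 1.21 (SD, n = 3) in the controls and 57.0% ± 1.69 in the knockouts, in RPKM. Hk3, a hexokinase of myeloid cells, made up 38.8% ± 0.884 (SD, n = 3) in the controls and 36.3% ± 1.51 in the knockouts, and the housekeeping form Hk1 the small rest. Of the phosphofructokinases, which catalyse the committed step of glycolysis, the liver-type gene Pfkl made up 91.8% ± 3.93 (SD, n = 3) in the controls and 92.0% ± 3.26 in the knockouts. Aldoa made up 98.7% ± 0.602 (SD, n = 3) in the controls and 98.5% ± 0.346 in the knockouts, with the brain-type Aldoc as the rest. Lactate dehydrogenase was mostly Ldhb, with a share of 86.8% ± 1.33 (SD, n = 3) in the controls and 86.0% ± 1.55 in the knockouts, over Ldha, the muscle-type subunit. The monocarboxylate exporter gene Slc16a3 (MCT4) exceeded Slc16a1 (MCT1) in each library, with a share of 76.6% ± 8.25 (SD, n = 3) in the controls and 73.8% ± 5.32 in the knockouts. Pfkfb3 and Pfkfb4, which set the level of the glycolytic activator fructose 2,6-bisphosphate, were closest to equal, with a Pfkfb4 share of 53.8% ± 3.65 (SD, n = 3) in the controls and 53.4% ± 1.98 in the knockouts. The lead of Pfkfb4 rests on the lengths, 7561 bases for Pfkfb3 and 4875 for Pfkfb4. In CPM Pfkfb3 was higher in each library, with means of 139 against 104 (controls) and 138 against 103 (knockouts). The kinases Pdk1 and Pdk3 were the exception, with a Pdk1 share of 60.7% ± 15.5 (SD, n = 3) in the controls and 76.1% ± 4.71 in the knockouts, and Pdk3 led in control 2. The group means of the other shares given here differed by less than 4 percentage points.

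**Figure D2:**
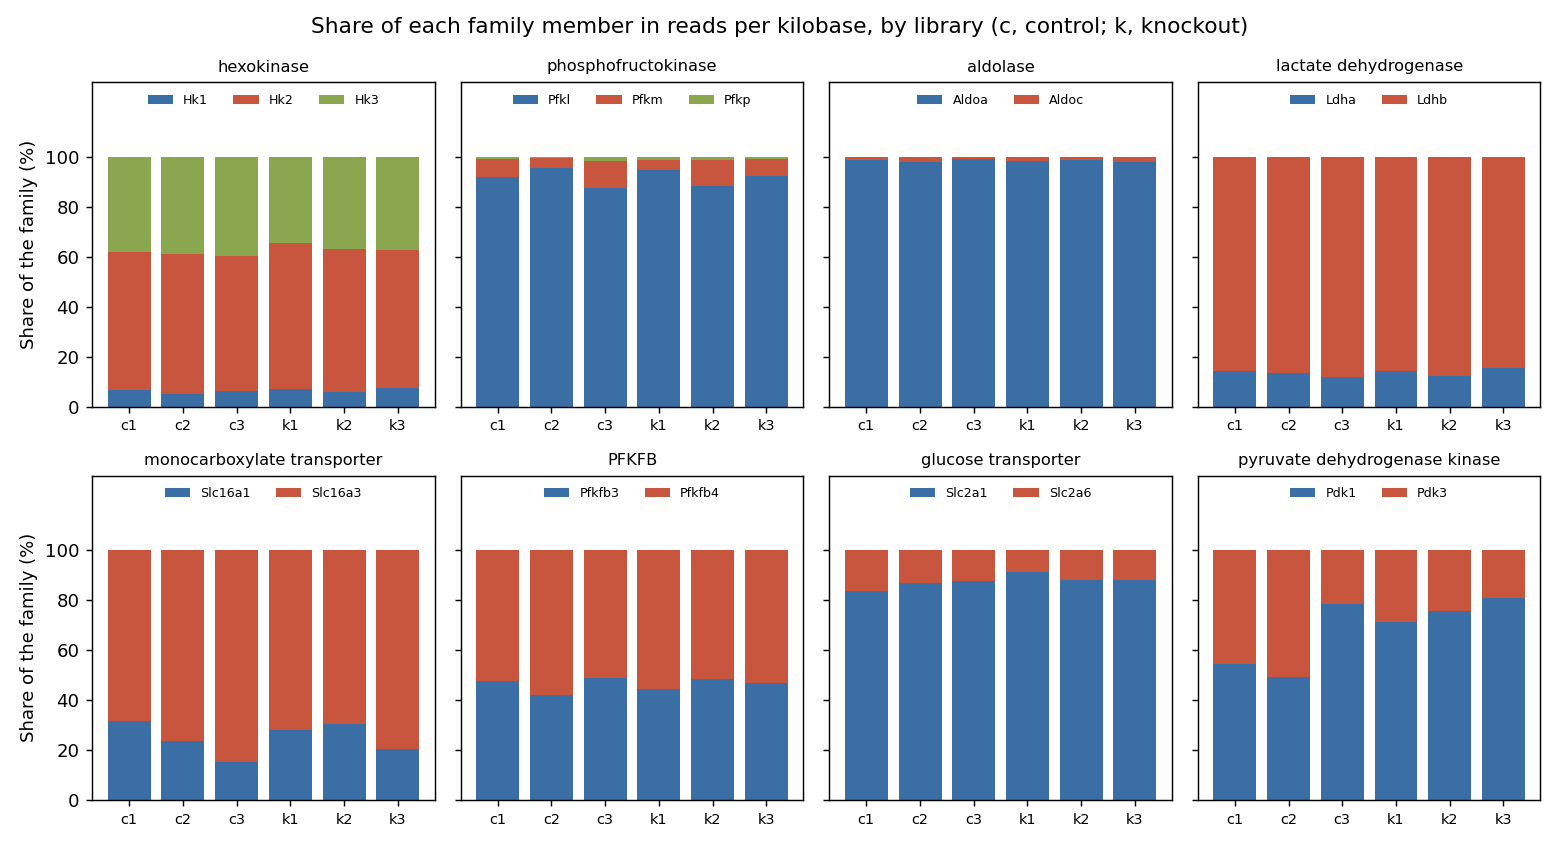
Share of each gene in the summed RPKM of its family (percent), 1 stacked bar per library, for 8 families. Hk2, Pfkl, Aldoa, Ldhb, Slc16a3 and Slc2a1 lead in all 6 libraries, and Pdk3 has a larger share in controls 1 and 2 than in the other libraries.

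The main comparison asked whether these genes differ between knockout and control microglia. No member was called: edgeR called 0 of 35 higher and 0 lower, where over all genes 0.0317% were called higher and 0.0127% lower, and 0.0443% in either direction. DESeq2 also called 0 members, where it called 0.311% of genes higher and 0.216% lower (0.527% in all). With limma voom 0 members were called, where 0.057% of genes were higher and 0.038% lower (0.095% in all). At an unadjusted p under 0.05, 3 members lay higher (Taldo1, Aldoa and Pkm) and 1 lower (Pdk3), 11.4% of the rows against 4.32% of all genes tested, 2.34% higher and 1.98% lower. The groups did not overlap in 8 rows (22.9%), 5 higher and 3 lower, against 11.1% of all genes, 6.59% higher and 4.47% lower. Of the 35 rows, 21 had a log2FC above 0 (60%, against 52.5% of all genes) and 14 below 0 (against 47.5%), and the median was 0.04 beside 0.02 for all genes. The members were chosen with earlier results of these data known, so these counts are a description. Without the shallow libraries, at 2 against 2, 10 rows lay higher and 7 lower without overlap, where 18.1% and 18.5% of all genes did (36.7% together). The extra rows in that comparison come with a background that is higher too.

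**Figure D3:**
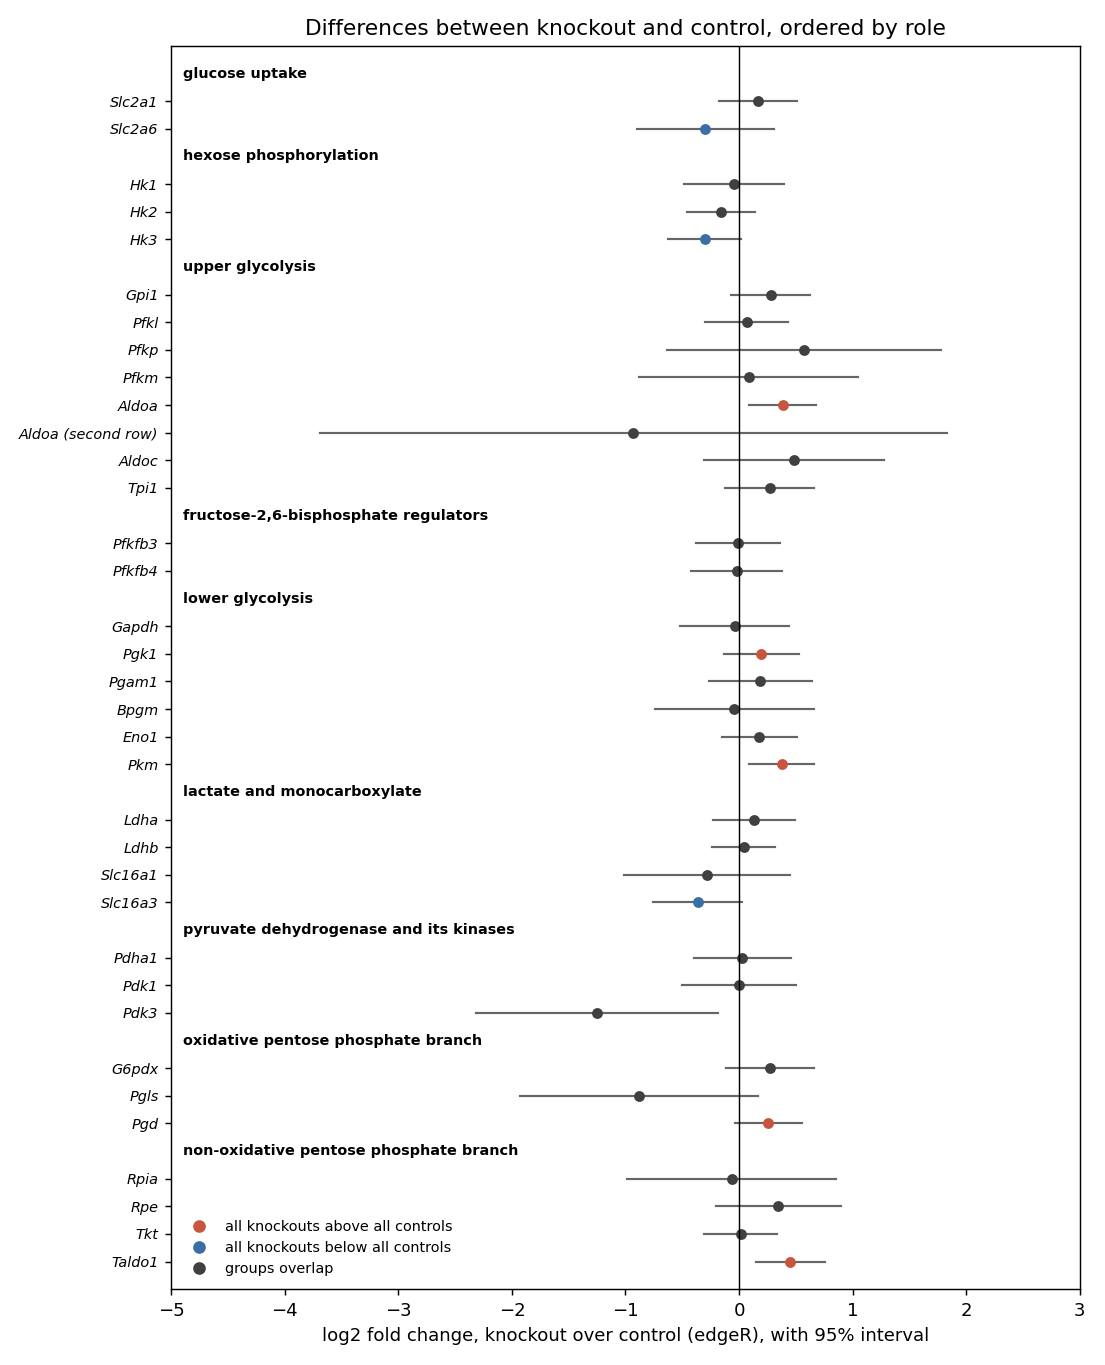
log2FC of knockout over control for each member, grouped by role, with the 95% interval of the edgeR quasi-likelihood fit; red and blue points mark rows whose groups do not overlap. The intervals of Aldoa, Pkm, Taldo1 and Pdk3 lie on 1 side of 0 before adjustment, and the others cross it.

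The pentose phosphate pathway held the member with the smallest p. Taldo1 (ENSMUSG00000025503), whose product transaldolase moves 3-carbon units between sugar phosphates in the non-oxidative branch, had 303, 336 and 266 CPM (controls) and 408, 418 and 413 CPM (knockouts). All knockouts lay above all controls, and the knockouts were closer to each other than the controls were. The means were 302 CPM ± 35.1 (SD, n = 3) and 413 CPM ± 5.03. The log2FC was 0.45 ± 0.14 (SE), with an edgeR adjusted p of 0.743 and a 95% interval of 0.15 to 0.76. The adjusted p of Taldo1 was 0.142 with DESeq2 and 0.259 with voom. Without the shallow libraries its log2FC was 0.35.

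Transketolase (Tkt, ENSMUSG00000021957), which works with transaldolase and moves 2-carbon units, showed no such separation. Tkt had 262, 231 and 284 CPM (controls) and 273, 229.9 and 281 CPM (knockouts), and the groups covered nearly the same range. Its log2FC was 0.01 ± 0.15 (SE), with an edgeR adjusted p of 0.999 and a 95% interval of -0.31 to 0.34. The same branch includes Rpe, which encodes ribulose 5-phosphate epimerase, at 22.7, 20.8 and 14.1 CPM (controls) and 31.3, 22.3 and 21.4 CPM (knockouts), with a log2FC of 0.35 ± 0.26 (SE). Rpia, its partner isomerase, had 7.34, 4.68 and 7.07 CPM (controls) and 5.24, 6.49 and 6.32 CPM (knockouts), with a log2FC of -0.07 ± 0.43 (SE). Both overlapped between the groups. In the GENCODE M21 annotation Rpe shares 17.9% of its exonic bases with a neighbour, so part of its reads may belong there.

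In the oxidative branch, Pgd (ENSMUSG00000028961), which encodes the second NADPH-producing enzyme, 6-phosphogluconate dehydrogenase, had 232, 236 and 228 CPM (controls) and 272, 275 and 284 CPM (knockouts). The groups did not overlap, and the spread within each was small, with a coefficient of variation of 1.82% in the controls and 2.20% in the knockouts. The log2FC was 0.26 ± 0.14 (SE), with an edgeR p of 0.085 before adjustment and an edgeR adjusted p of 0.999. The edgeR test draws each gene's spread towards that of other genes of its level. The part of that step in the p of Pgd was not tested. G6pdx (ENSMUSG00000031400), the rate-limiting glucose 6-phosphate dehydrogenase and first NADPH producer, had 63.4, 81.1 and 56.6 CPM (controls) and 74.4, 81.8 and 88.7 CPM (knockouts). Control 2 lay within the range of the knockouts, and the log2FC was 0.27 ± 0.18 (SE), with an edgeR adjusted p of 0.999. Pgls, the lactonase between them, had 7.73, 12.7 and 3.93 CPM (controls) and 4.08, 2.86 and 6.74 CPM (knockouts), with the higher mean in the controls. Pgls rested on 5 reads in control 3 and 11 in knockout 2, shares 20.6% of its exonic bases with a neighbouring gene, and had a log2FC of -0.88 ± 0.49 (SE), with an edgeR adjusted p of 0.999.

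Summed over the 7 pentose phosphate genes, the level was 899, 923 and 859.6 CPM (controls) and 1068, 1037 and 1101 CPM (knockouts). All knockouts lay above all controls, at 1.196-fold the control mean. Most of the sum is Taldo1, Tkt and Pgd, but the gap between the groups lies mostly in Taldo1 and Pgd. The control and knockout means were 302 and 413 CPM for Taldo1 and 232 and 277 CPM for Pgd. For Tkt they were 259 and 261 CPM. No p is given for the pentose phosphate sum or the other sums, since the members were chosen. The pentose phosphate sum did not overlap under DESeq2 size factors or library totals either. In the same libraries the border macrophage markers summed to 15.3, 40.7 and 90.4 CPM (controls) and 262, 169 and 65.0 CPM (knockouts). The neutrophil markers summed to 42.7, 317 and 377 CPM (controls) and 1736, 561 and 129.6 CPM (knockouts). The part of these cells in the pentose phosphate sum was not tested.

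Glycolysis opens with glucose uptake and phosphorylation, and here no member had all knockouts above all controls. Slc2a1, the gene of the glucose transporter GLUT1, had 100.5, 105 and 115 CPM (controls) and 135, 108 and 114 CPM (knockouts), with overlapping groups. Its log2FC was 0.16 ± 0.16 (SE), with an edgeR adjusted p of 0.999. Slc2a6, a lysosomal transporter gene of the same family induced in activated macrophages, had 18.1, 14.7 and 14.9 CPM (controls) and 11.8, 13.5 and 14.0 CPM (knockouts). All knockouts lay below all controls, by a small gap, with a log2FC of -0.30 ± 0.28 (SE), with an edgeR adjusted p of 0.999. Under library totals the Slc2a6 groups overlapped.

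All 3 hexokinase genes had a log2FC below 0, although that of Hk1 turned positive under library totals, voom and without the shallow libraries. Hk3 (ENSMUSG00000025877) had 129.8, 133 and 129 CPM (controls) and 103, 102 and 112 CPM (knockouts). The groups did not overlap, and the controls had a coefficient of variation of 1.70%. Its log2FC was -0.30 ± 0.15 (SE), with an edgeR adjusted p of 0.999 and a 95% interval of -0.62 to 0.02. Hk2, the inducible form, had 306, 315 and 284 CPM (controls) and 284, 257 and 269 CPM (knockouts), so that control 3 lay just under knockout 1, and its log2FC was -0.16 ± 0.14 (SE). Hk1 had overlapping groups between 36.9 and 53.8 CPM and a log2FC of -0.04 ± 0.21 (SE). The hexokinase sum was 489, 488 and 459.7 CPM (controls) and 435, 396 and 432 CPM (knockouts), or 0.879 times the control mean. All knockouts lay below all controls, also under DESeq2 size factors and library totals.

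In upper glycolysis 7 of 8 rows had a log2FC above 0, against 52.5% of all genes tested. Of these rows, Pfkl changed sign in 2 alternative fits and Pfkm in 5. Aldoa alone had groups that did not overlap, 12.5% of the rows against 11.1% of all genes. Aldoa (ENSMUSG00000030695), which cleaves fructose 1,6-bisphosphate, had 825, 895 and 713 CPM (controls) and 949.8, 1069.9 and 1155 CPM (knockouts). The groups did not overlap, control 3 was the lowest library and knockout 3 the highest. The means were 811 CPM ± 92.1 (SD, n = 3) and 1058 CPM ± 103, with a log2FC of 0.38 ± 0.14 (SE), with an edgeR adjusted p of 0.999. Gpi1, which converts glucose 6-phosphate to fructose 6-phosphate, had 211, 240.2 and 182 CPM (controls) and 262, 218 and 288 CPM (knockouts), with control 2 inside the knockout range and a log2FC of 0.28 ± 0.16 (SE). Tpi1, which interconverts the triose phosphates, had 87.1, 107 and 69.1 CPM (controls) and 103, 96.1 and 119.9 CPM (knockouts), again with control 2 inside the knockout range and a log2FC of 0.27 ± 0.18 (SE).

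Phosphofructokinase genes overlapped between the groups. Pfkl ranged from 175 CPM in control 3 to 257 CPM in control 2, with the knockouts between, and had a log2FC of 0.07 ± 0.17 (SE). The muscle-type gene Pfkm and the platelet-type gene Pfkp stayed under 12 and 6 CPM, with a log2FC of 0.08 ± 0.45 (SE) for Pfkm and 0.57 ± 0.57 (SE) for Pfkp. Aldoc ranged from 7.07 to 24.4 CPM, with a log2FC of 0.48 ± 0.37 (SE). The summed upper glycolysis level, mostly Aldoa, was 1341, 1528 and 1165 CPM (controls) and 1558, 1616 and 1844 CPM (knockouts), without overlap under TMM, DESeq2 size factors and library totals. Of the kinases that set the activator, Pfkfb3 had a log2FC of -0.01 (95% interval -0.38 to 0.36) and Pfkfb4 of -0.02 (95% interval -0.42 to 0.38). For both, knockout 2 was the lowest and knockout 3 the highest library.

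**Figure D4:**
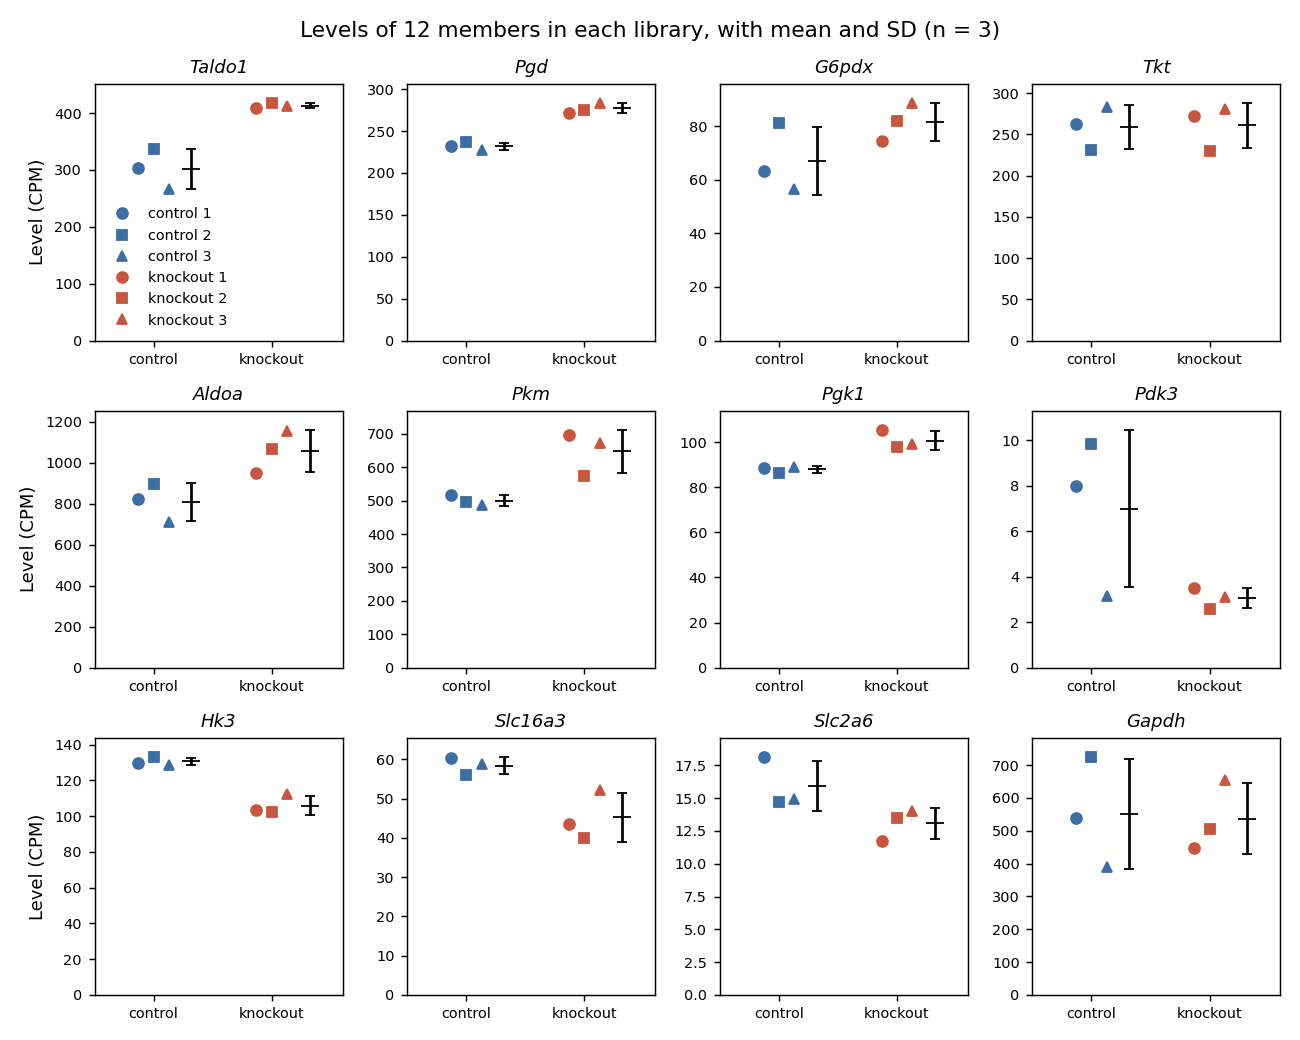
Level in CPM of 12 members in each library, axis from 0, with the mean and SD of 3 libraries per group. Taldo1, Pgd, Aldoa, Pkm and Pgk1 have all knockouts above all controls, Hk3, Slc16a3 and Slc2a6 all knockouts below, and G6pdx, Tkt, Pdk3 and Gapdh overlap.

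Lower glycolysis was mixed. Pkm (ENSMUSG00000032294), which encodes pyruvate kinase, the last and ATP-yielding step, had 517, 496 and 486 CPM (controls) and 696, 574 and 671 CPM (knockouts). The controls were close together and all 3 knockouts lay above them. The means were 499 CPM ± 16.0 (SD, n = 3) and 647 CPM ± 64.6, with a log2FC of 0.37 ± 0.14 (SE), with an edgeR adjusted p of 0.999. Pkm shares 15.3% of its exonic bases with the predicted gene Gm49759, and gene counts do not separate its M1 and M2 splice forms. Pgk1, the first ATP-yielding kinase, had 88.6, 86.2 and 88.8 CPM (controls) and 105, 97.7 and 98.9 CPM (knockouts), without overlap. Its log2FC was 0.20 ± 0.15 (SE), with an edgeR adjusted p of 0.999.

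The remaining enzymes of lower glycolysis overlapped between the groups. Gapdh, which is often used as a reference gene, had 539.7, 725 and 388 CPM (controls) and 449, 507 and 656 CPM (knockouts). Both the lowest and the highest of the 6 libraries were controls, with a coefficient of variation of 30.6%, and the log2FC was -0.04 ± 0.22 (SE), with an edgeR adjusted p of 0.999. Eno1 had 797, 917 and 680.5 CPM (controls) and 802, 834 and 1077 CPM (knockouts), with a log2FC of 0.18 ± 0.16 (SE). Pgam1, the phosphoglycerate mutase gene, had 39.4, 50.7 and 30.6 CPM (controls) and 42.9, 46.2 and 50.4 CPM (knockouts), with a log2FC of 0.19 ± 0.21 (SE). Bpgm, which makes 2,3-bisphosphoglycerate, stayed between 8.82 and 14.1 CPM, with a log2FC of -0.04 ± 0.33 (SE). Control 3 had the lowest Gapdh, Eno1 and Pgam1 of all libraries, and the lower glycolysis sum was 1994, 2286 and 1685 CPM (controls) and 2104, 2069.9 and 2568 CPM (knockouts).

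Several of these genes have near-identical copies in the genome, so their counts are uncertain where reads could not be assigned. Sequence matches of at least 95% identity over 300 bases were found for Gapdh in 78 other annotated genes. Reads on these copies were 4.86% of the reads on Gapdh and copies together. For Ldhb the share was 3.27%, for Pkm 2.73%, for Eno1 2.65% and for Gpi1 2.64%. It was 1.81% for Pgam1, 1.27% for Ldha, 0.840% for Pgk1 and 0.425% for Tpi1. The other members, Taldo1, Aldoa, Pgd and Hk3 among them, had 0 such copies. Besides Rpe, Pgls and Pkm, the largest shares of exonic bases in common with other annotated genes were those of Pdha1 (16.1%), G6pdx (13.6%), Gpi1 (11.5%) and Pfkm (10.7%). Every other member shared 5.58% (Pfkp) or less.

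At the exit of glycolysis, pyruvate is reduced to lactate, exported, or passed to the mitochondrial pyruvate dehydrogenase complex. Ldha had 295, 291 and 209.8 CPM (controls) and 281, 256 and 337 CPM (knockouts), with a log2FC of 0.13 ± 0.17 (SE). Ldhb had 837, 885 and 749 CPM (controls) and 791, 867 and 884 CPM (knockouts), with a log2FC of 0.04 ± 0.13 (SE) and a 95% interval of -0.24 to 0.32. Both overlapped, and control 3 was the lowest library in each. Slc16a3 (ENSMUSG00000025161), the lactate exporter of highly glycolytic cells, had 60.3, 56.0 and 58.9 CPM (controls) and 43.7, 40.0005 and 52.1 CPM (knockouts). All knockouts lay below all controls, with means of 58.4 CPM ± 2.18 (SD, n = 3) and 45.3 CPM ± 6.22. The log2FC was -0.36 ± 0.18 (SE), with an edgeR adjusted p of 0.999. Slc16a1 had 23.1, 14.4 and 8.64 CPM (controls) and 14.2, 14.5 and 11.02 CPM (knockouts), with overlapping groups and a log2FC of -0.28 ± 0.34 (SE), which was 0.15 without control 1.

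Pdk3 (ENSMUSG00000035232) encodes a kinase that inhibits pyruvate dehydrogenase, and was the lower member with the smallest p. It had 7.99, 9.84 and 3.14 CPM (controls) and 3.49, 2.60 and 3.11 CPM (knockouts). Controls 1 and 2 lay above all other libraries, but control 3 lay among the knockouts. The log2FC was -1.25 ± 0.50 (SE), with an edgeR adjusted p of 0.999, and control 3 held only 4 reads and knockout 2 only 10. Without the shallow libraries, at 2 against 2, it was -1.44 (edgeR adjusted p = 0.261). Pdk1, the related kinase induced by hypoxia, had 29.0, 29.0 and 34.6 CPM (controls) and 26.6, 24.7 and 40.1 CPM (knockouts), with a log2FC of 0.00 ± 0.24 (SE). Pdha1, the subunit that both kinases phosphorylate, had 41.0, 33.7 and 44.0 CPM (controls) and 43.0, 41.3 and 36.1 CPM (knockouts), with a log2FC of 0.03 ± 0.20 (SE). Both overlapped between the groups.

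**Figure D5:**
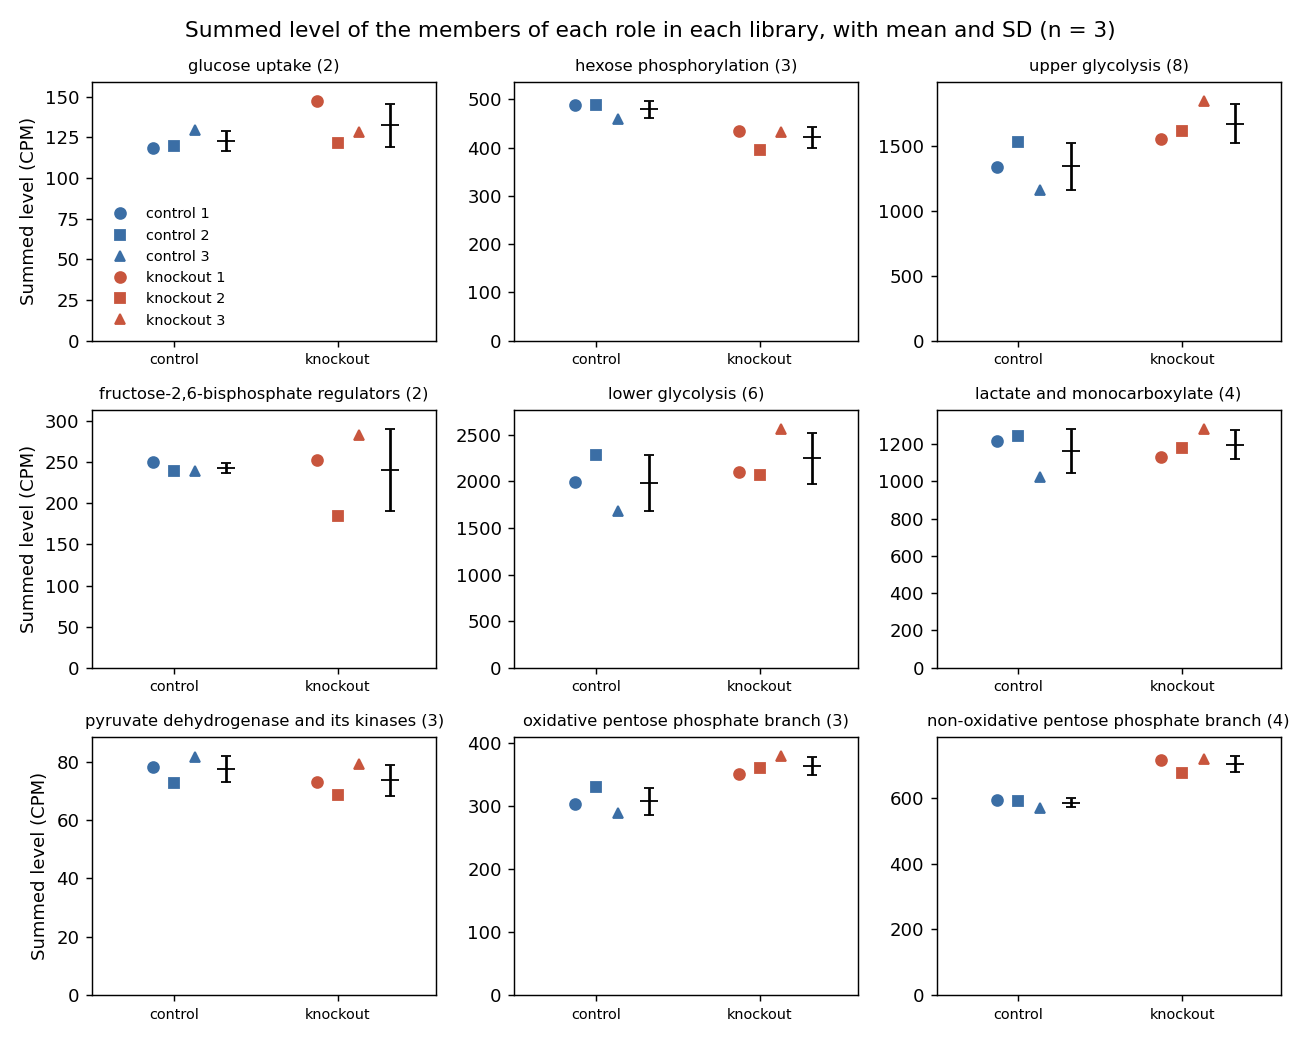
Summed level (CPM, axis from 0) of the members of each role in each library, with the mean and SD of 3 libraries per group and the number of rows in brackets. Hexokinases are lower in all knockouts, and upper glycolysis and both pentose phosphate branches are higher in all knockouts; the other 5 sums overlap.

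Genes of the same routes outside the members were read from 8 lists. None of their 58 tested rows was called by edgeR or voom, where 0.0443% and 0.095% of all genes were. DESeq2 called Slc2a8 and Idh2 lower, where it called 0.216% of all genes lower and 0.527% in either direction. At an unadjusted p under 0.05, among the genes reported here, Emb and Aldh1l1 lay higher and Slc2a8 and Idh2 lower. Over all genes tested, 4.32% had such a p, 2.34% higher and 1.98% lower. Among 9 tested isozymes, 8 had a log2FC above 0, against 52.5% of all genes. Their median was 0.20, beside 0.02 for all genes. Pgm2l1, which makes glucose 1,6-bisphosphate, had a log2FC of 0.93 ± 0.60 (SE), and Galm, the galactose mutarotase gene, of 0.28 ± 0.23 (SE). Pgm2l1 held only 1 read in control 3.

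Of 8 tested transporter genes and partners, 4 were above 0 and 4 below, with a median of -0.08. Slc2a8, the gene of the intracellular sugar transporter GLUT8, had 39.3, 46.0 and 11.8 CPM (controls) and 7.34, 6.23 and 12.7 CPM (knockouts). Control 3 lay with the knockouts, as it did for Pdk3. The log2FC of Slc2a8 was -1.92 ± 0.46 (SE), with an edgeR adjusted p of 0.447. Emb, a partner protein of monocarboxylate transporters, had 2.73, 1.56 and 2.36 CPM (controls) and 6.13, 5.45 and 4.46 CPM (knockouts), with a log2FC of 1.29 ± 0.54 (SE). Its value in control 3 rested on 3 reads. Slc2a5, a fructose transporter gene used as a microglia marker, had 2411, 2265 and 1975 CPM (controls) and 1934, 1861 and 1862 CPM (knockouts). All knockouts lay below all controls, with a log2FC of -0.23 ± 0.12 (SE), with an edgeR adjusted p of 0.999. Per length its mean over the 6 libraries was 603 RPKM, far above that of Slc2a1 at 32.3 RPKM.

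NADPH is also made outside the pentose phosphate pathway, and 2 of those 5 tested rows were above 0 and 3 below (median -0.14). Idh2, the mitochondrial NADP-dependent isocitrate dehydrogenase gene, had 111, 100.4 and 88.0 CPM (controls) and 61.6, 66.2 and 45.8 CPM (knockouts). All knockouts lay below all controls, with a log2FC of -0.80 ± 0.19 (SE), with an edgeR adjusted p of 0.261, the smallest adjusted p of the 8 lists. Aldh1l1, a folate enzyme also used as an astrocyte marker, had 1.52, 4.57 and 3.93 CPM (controls) and 10.3, 7.01 and 9.30 CPM (knockouts), with a log2FC of 1.47 ± 0.50 (SE), with an edgeR adjusted p of 0.878. Of the 8 astrocyte markers, 5 had higher and 3 lower means in the knockouts, and Slc1a3 made up most of their sum, which ranged over 293 to 316 CPM in the controls and 265 to 348 CPM in the knockouts. The part of astrocyte RNA in the Aldh1l1 value was not tested. Nnt, the mitochondrial transhydrogenase gene, had a log2FC of -0.62 ± 0.32 (SE).

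Transcription factors and hydroxylases of the hypoxia and antioxidant responses had a median of -0.03, 5 above 0 and 6 below. Arnt, the partner of the oxygen-regulated HIF subunits, had 62.7, 58.8 and 69.9 CPM (controls) and 51.6, 48.8 and 49.8 CPM (knockouts). All knockouts lay below all controls, with a log2FC of -0.34 ± 0.17 (SE), with an edgeR adjusted p of 0.999. Keap1, the adaptor that marks NRF2 for degradation, had a log2FC of 0.20 ± 0.19 (SE), and the growth regulator Myc of -0.19 ± 0.19 (SE). Of 5 tested hypoxia-induced genes outside glycolysis, 2 were above 0 and 3 below (median -0.09). Among them Bnip3 had a log2FC of 0.33 ± 0.28 (SE), Ankrd37 of -0.51 ± 0.71 (SE) and Ndrg1 of -0.86 ± 1.39 (SE).

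Of 10 further genes of the pyruvate dehydrogenase complex and pyruvate transport, 5 were above 0 and 5 below (median 0.01). The kinase gene Pdk2 had a log2FC of -0.44 ± 0.27 (SE), the E3 subunit gene Dld of 0.26 ± 0.19 (SE) and the pyruvate carboxylase gene Pcx of -0.51 ± 0.39 (SE). Of 6 further pentose and ribose phosphate genes 5 were above 0 (median 0.16). The ribose phosphate pyrophosphokinase genes Prps2 and Prps1 had a log2FC of 0.24 ± 0.24 (SE) and 0.16 ± 0.30 (SE), and H6pd, the G6pdx counterpart of the endoplasmic reticulum, of 0.20 ± 0.27 (SE). Of 4 tested genes of fructose bisphosphate control and glucose release 3 were above 0 (median 0.17). The glucose 6-phosphatase gene G6pc3 had a log2FC of -0.28 ± 0.17 (SE), Tigar, a bisphosphatase that favours the pentose phosphate pathway, of 0.31 ± 0.64 (SE), and Pfkfb1 of 0.30 ± 0.91 (SE). Tigar and Pfkfb1 had 0 reads in the shallow control 3. Tigar had 7.86 and 5.94 CPM in controls 1 and 2, against 7.16, 5.71 and 6.51 CPM in the knockouts.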

How the data were processed

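The deposited table holds raw whole-number read counts for each Ensembl gene, per the file headers, with 1 library per mouse per the labels. The submitters' processing notes name the read aligner STAR, the counter featureCounts (Subread), Salmon, bcl2fastq and build GRCm39; the sources used here give no strand setting. Of 55774 rows, 287 that repeated an identifier were left out, 0 named no gene, and 0 columns belonged to other samples.

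edgeR 4.0.16 (R 4.3.3) was run on 15787 genes that passed its default filter (TMM factors, quasi-likelihood F-test, robust option, group as the only term). The SE is the log2FC over the root of F. DESeq2 1.42.0, voom (limma 3.58.1), other scalings and filters, a replicate block and left-out libraries were alternatives. The tests across genes were checked on simulated data. Exon lengths and overlaps came from GENCODE M21 (GRCm38), which held 99.5% of the identifiers, and copies were searched with blastn 2.17.0.

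The members and lists were chosen with earlier results of these data known. All 34 members are named; of each further list, called genes or otherwise up to 3 with the smallest p are named. A gene of the isozyme list is not reported here. Same-numbered mice were not treated as paired in the main fit, since the labels state no pairing. The correlations of their deviations from the group means were 0.29, -0.20 and -0.05. That of the shallow libraries, control 3 and knockout 2, was 0.27, so these values cannot settle whether mice were paired.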

Additional observations from a re-analysis of the deposited data

How the results depend on the processing

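No alternative called a member: the count stayed at 0 higher and 0 lower in all 16. Over all genes, 5 were called higher and 2 lower, against 60 and 42 without a filter, 49 and 34 with DESeq2, 9 and 6 with voom, 1 and 1 without the robust option, 16 and 9 with the replicate block, and 9 and 30 without both shallow libraries; with 1 library left out they ranged from 1 to 15 higher and 1 to 35 lower. Members at an unadjusted p under 0.05 were 3 higher and 1 lower. The higher count was 5 under library totals, and the lower count 2 under DESeq2 size factors, the stricter filter, DESeq2, protein-coding genes or without both shallow libraries, 3 with voom and 0 with the replicate block; with 1 library left out they ranged from 1 to 4 and from 0 to 3. Rows without overlap went from 5 to 10 higher and from 3 to 7 lower without both shallow libraries, a comparison added after the data were seen; fewer libraries overlap less often by construction. The member median ranged from -0.03 to 0.11 with 1 library left out. The count of member rows with a log2FC above 0, 21 in the main fit, ranged from 15 (without knockout 3) to 26 (library totals).

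The log2 fold changes of 14 members changed sign under at least 1 alternative. Under DESeq2 size factors, Pdk1 had -0.011, Tkt had -0.00099. Under library totals, Hk1 had 0.0083, Pfkfb3 had 0.041, Pfkfb4 had 0.034, Gapdh had 0.021, Bpgm had 0.015. Under no filter, Pdk1 had -0.020, Tkt had -0.0038. Under stricter filter, Pdk1 had -0.0059, Tkt had -0.0025. Under limma voom, Hk1 had 0.036, Pfkm had -0.073, Pfkfb3 had 0.053, Pfkfb4 had 0.014. Under replicate block, Pfkm had -0.018, Pdk1 had -0.056. Without both shallow libraries, Hk1 had 0.075, Pfkfb3 had 0.14, Pfkfb4 had 0.10, Ldhb had -0.045. With 1 library left out the log2 fold change ranged from -0.17 to 0.083 for Hk1, -0.056 to 0.25 for Pfkl, -0.21 to 0.37 for Pfkm, -0.17 to 0.11 for Pfkfb3, -0.17 to 0.14 for Pfkfb4, -0.25 to 0.21 for Gapdh, -0.26 to 0.099 for Bpgm, -0.018 to 0.22 for Ldha, -0.034 to 0.10 for Ldhb, -0.52 to 0.15 for Slc16a1, -0.074 to 0.090 for Pdha1, -0.28 to 0.11 for Pdk1, -0.26 to 0.087 for Rpia, -0.065 to 0.080 for Tkt. Others kept their sign with 1 library left out but moved by over 1.5 times: Slc2a1 from 0.042 (without knockout 1) to 0.21 (without knockout 2), Slc2a6 from -0.37 (without knockout 3) to -0.18 (without control 1), Gpi1 from 0.16 (without knockout 3) to 0.39 (without control 2), Pfkp from 0.32 (without control 2) to 0.89 (without control 3), the second Aldoa row from -2.2 (without knockout 3) to -0.38 (without control 3), Aldoc from 0.20 (without knockout 3) to 1.1 (without control 2), Tpi1 from 0.12 (without control 3) to 0.44 (without control 2), Pgam1 from 0.037 (without control 3) to 0.39 (without control 2), Eno1 from 0.012 (without knockout 3) to 0.30 (without control 2), G6pdx from 0.16 (without control 3) to 0.44 (without control 2), Pgls from -1.3 (without knockout 3) to -0.40 (without control 2), Rpe from 0.14 (without knockout 1) to 0.48 (without control 1). The 1.5 times is counted from the value of the main fit. Below that mark, with 1 library left out, Hk2 ranged from -0.22 to -0.12 and Slc16a3 from -0.50 to -0.30. Pdk3 ranged from -1.5 to -0.93, Aldoa from 0.29 to 0.47 and Taldo1 from 0.36 to 0.54. The cause of the changes of sign was not tested. The replicate block changed no call of a member. Control 3 limits genes of few reads, since 3 of its reads correspond to 2.36 CPM.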
